A study of Mus musculus with 24 samples.

Results

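The clustered histone genes encode the replication-dependent core and linker histones, the proteins that package DNA into nucleosomes. They were taken as every row of the count table whose Ensembl identifier has, in GENCODE M21, a protein-coding symbol that starts with Hist1h, Hist2h, Hist3h or Hist4h. This gave 67 of 55536 genes. By class they were 6 linker H1 genes, 18 H2A, 18 H2B, 12 H3 and 13 H4 genes. Of these, 54 lay in the Hist1 cluster (GRCm38, chromosome 13, 21715763 to 23934851), 10 in Hist2 (chromosome 3, 96219865 to 96270132), 2 in Hist3 (chromosome 11) and 1 in Hist4 (chromosome 6). The question here was how much poly(A)-selected signal these genes gave in 2 germ cell fractions and 3 genotypes.

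Libraries were made from pachytene/diplotene spermatocytes and from round spermatids, each enriched on an albumin gradient from the testes of C57BL/6J males aged 10 to 15 weeks. The males were Ago413+/+ (wild-type), Ago413+/- (heterozygous) or Ago413-/- (null) for a targeted deletion that removes Ago1 entirely and parts of its neighbours Ago3 and Ago4. Each preparation pooled 2 to 5 mice, and fractions were kept only above 70% purity, so each library is a mix of several animals and still holds other cell types. The paper gives a higher range of purity for round spermatids than for spermatocytes. The labels do not say that every library came from its own preparation, and p-values measure the spread between these libraries. After 3 libraries that the labels call outliers were set aside, 21 remained. Spermatocytes had 4 wild-type, 3 heterozygous and 3 null libraries. Round spermatids had 3, 4 and 4.

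Canonical histone mRNAs are the only abundant metazoan mRNAs that are not polyadenylated. Their 3′ end is made by a cut just after a conserved stem-loop, which is bound by the stem-loop binding protein SLBP, and the mRNA is degraded when DNA replication stops. Transcripts that run past the stem-loop to a poly(A) signal do get a tail, and these forms are known from differentiated cells. The germ line also uses testis variants, among them the linker histone H1t (Hist1h1t), TH2A (Hist1h2aa) and TH2B (Hist1h2ba), which are made in spermatocytes before histones give way to transition proteins and protamines. Because the RNA was poly(A)-selected, the values below describe the polyadenylated part of the histone RNA and not all of it.

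The 3′ ends of the annotated transcripts show what poly(A) selection had to work with. A stem-loop of the histone type, a 6-pair stem with a loop of 4 bases, was found within 150 bases of the stop codon in 46 of the 52 members with enough annotated bases there to hold one (88.5%). It was found in 65 of 21079 other protein-coding genes (0.308%). The 26-base windows around the stem-loop of the members with the highest signal are given 5′ to 3′ in the sense of the transcript, with the stem and loop in capitals.
Hist1h2bp, chr13:21787919-21787944, plus strand: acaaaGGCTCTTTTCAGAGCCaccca
Hist1h4a, chr13:23760794-23760819, minus strand: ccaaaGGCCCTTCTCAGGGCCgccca
Hist2h2aa2, chr3:96239778-96239803, minus strand: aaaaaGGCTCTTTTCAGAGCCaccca
Hist1h3a, chr13:23761884-23761909, minus strand: ccaaaGGCTCTTTTCAGAGCCacaca
Hist1h1t, chr13:23696521-23696546, plus strand: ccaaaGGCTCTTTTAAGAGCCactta
Hist1h4h, chr13:23531454-23531479, plus strand: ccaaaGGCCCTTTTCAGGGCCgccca
All coordinates are GRCm38 and lie in the 3′ untranslated part of the only exon of the transcript. The stem-loop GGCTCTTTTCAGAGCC, which Hist1h2bp, Hist2h2aa2 and Hist1h3a carry, was the form in 25 of the 45 members whose stem-loop lies in a single-exon transcript. The loop and pairing of Hist1h4a (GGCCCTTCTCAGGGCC) occurred in 1 member only.

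Members differed in how far their annotated transcripts reach. In 20 members the transcript that holds the stem-loop ended shortly after it, in 26 it extended further, in 6 no stem-loop was found although bases after the stop codon were annotated, and in 15 at most 2 bases were annotated after the stop codon. Hist1h4a was annotated for 108 bases beyond its stem-loop, with the poly(A) signal AATAAA near its end, and Hist1h1t for 185 bases, also with AATAAA. Hist1h2bp had a 469-base transcript that stops 38 bases after the stem-loop and a second, spliced transcript of 621 bases that lacks the stem-loop and ends with AATAAA. Hist2h2be was annotated as a 2620-base transcript with AATAAA and no stem-loop of this form. Hist1h2aa and Hist1h2ba were annotated as coding sequence alone (390 and 384 bases), so reads that lie wholly in their untranslated parts were not counted for them.

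Upstream regions were read from RefSeq (GRCm38.p6), which matched 62 of the 67 members. A CCAAT box (CCAAT on either strand) was present in the 250 bases upstream of the start in 51 of 62 members (82.3%), against 37.4% of 26963 other genes. A TATA box (TATAAA on either strand) was present in 29 members (46.8%, against 14.3%), and the octamer ATTTGCAT on either strand in 14 (22.6%, against 1.77%). The cyclic AMP response element TGACGTCA, which is its own reverse complement, was present in 4 members (6.45%, against 1.76%), namely Hist1h2ag, Hist1h2bj, Hist1h4a and Hist1h4h. The 250 bases upstream of the 2 leading members and of both divergent pairs discussed below are given 5′ to 3′ in the direction of transcription, with matches in capitals.
Hist1h2bp, chr13:21787238-21787487, plus strand: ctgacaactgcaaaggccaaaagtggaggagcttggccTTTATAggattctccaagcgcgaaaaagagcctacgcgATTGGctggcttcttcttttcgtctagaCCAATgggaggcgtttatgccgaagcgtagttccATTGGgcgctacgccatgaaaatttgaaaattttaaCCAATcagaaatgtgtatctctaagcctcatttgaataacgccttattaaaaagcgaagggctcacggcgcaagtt
Hist1h4a, chr13:23761250-23761499, minus strand: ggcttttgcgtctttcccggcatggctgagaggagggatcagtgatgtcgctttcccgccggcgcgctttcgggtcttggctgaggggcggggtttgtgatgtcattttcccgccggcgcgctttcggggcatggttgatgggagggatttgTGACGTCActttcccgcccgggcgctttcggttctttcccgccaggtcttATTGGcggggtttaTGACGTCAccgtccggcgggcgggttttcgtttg
Hist1h2aa, chr13:23934187-23934436, plus strand: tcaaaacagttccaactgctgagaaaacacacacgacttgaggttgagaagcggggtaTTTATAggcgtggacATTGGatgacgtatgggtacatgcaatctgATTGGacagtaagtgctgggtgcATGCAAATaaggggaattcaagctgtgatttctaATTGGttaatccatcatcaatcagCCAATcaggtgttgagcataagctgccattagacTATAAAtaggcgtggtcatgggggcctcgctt
Hist1h2bj, chr13:22042948-22043197, plus strand: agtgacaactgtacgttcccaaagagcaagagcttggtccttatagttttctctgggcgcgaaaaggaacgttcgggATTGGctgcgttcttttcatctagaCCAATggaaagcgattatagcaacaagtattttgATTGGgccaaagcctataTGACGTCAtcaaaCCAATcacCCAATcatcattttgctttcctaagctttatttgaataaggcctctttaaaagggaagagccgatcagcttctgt
The Hist1h4a region holds the cyclic AMP response element at 2 places. The Hist1h2aa region lies between its start and that of Hist1h2ba, which is transcribed from the other strand, and it holds the octamer, CCAAT and TATA matches. The Hist1h2bj region is likewise shared with Hist1h2ag and holds the response element once. No match overlapped another in these regions. A match is a description of the letters and says nothing of binding.

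Depth was between 12825105 and 29749058 counts per library. At that depth a count of 0 allowed up to 0.223 CPM (TMM-scaled CPM, the counts of a gene relative to the scaled library total) in the shallowest library and 0.0941 CPM in the deepest, for counting error only. Ago1 had 0 counts in all 7 null libraries and 3.33 ± 0.626 CPM (SD, n = 4) in wild-type spermatocytes. The partly deleted neighbours were still counted: in null against wild-type spermatocytes Ago3 was at 64.8 ± 24.5 CPM (n = 3) against 7.02 ± 2.89 CPM (n = 4), and Ago4 at 12.3 ± 3.39 CPM against 32.1 ± 12.9 CPM. Counts per gene do not show from which part of Ago3 or Ago4 the reads came, so only Ago1 checks the null label. The fractions carried their markers: spermatocyte genes such as Sycp3 were lower in wild-type round spermatids (log2 fold change -1.66) and Tnp2 and Prm1, which encode a transition protein and a protamine, were higher (1.99 and 2.04). Summed spermatid marker CPM was between 3891 and 12533 in spermatocyte libraries and between 16139 and 44069 in round spermatid libraries, so transcripts of these genes were present in both fractions. Wild-type spermatocyte replicate 5 stood apart from the other 3 libraries of its group for several members, and heterozygous spermatocyte replicate 3 from the other 2. Results that rest on either are given with and without it.

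Signal from these genes was low and came from few of them. The 67 genes together took between 0.0110% and 0.0236% of the counts of a library, with summed levels from 105.3 to 235.5 CPM. Testing required 10 or more counts in at least 3 libraries. This was met by 20 members (29.9%), against 68.4% of all 22028 protein-coding genes. The other 47 had at most 12 counts in any library and at most 69 over all 21, with a median of 16, and 2 of them had none. Together these 47 held 945 of the 63252 counts of the family (1.49%). In both fractions most clustered histone genes were therefore not detectable above the level of a few counts in this poly(A) RNA.

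**Figure D1:**
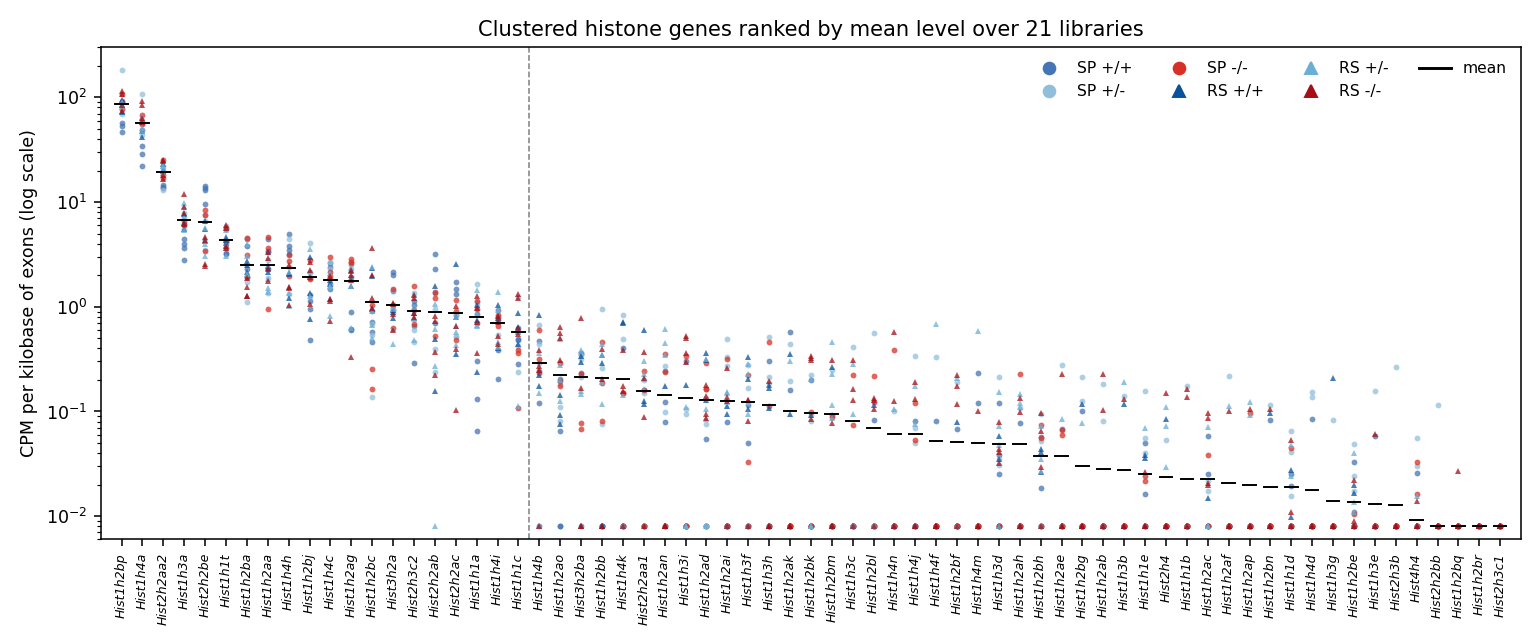
Level of each of the 67 clustered histone genes in CPM per kilobase of merged exons (log axis), ranked by the mean over 21 libraries. Points are libraries (circles spermatocytes, SP; triangles round spermatids, RS; colours genotypes), black bars are means, values of 0 are drawn at the lower edge, and the dashed line separates the 20 tested genes from the 47 that are not.

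Per kilobase of exon, Hist1h2bp led with a mean of 87.0 CPM per kilobase over 21 libraries, followed by Hist1h4a at 56.9, Hist2h2aa2 at 19.4, Hist1h3a at 6.66, Hist2h2be at 6.42 and Hist1h1t at 4.38. Hist1h2bp lay above 95.6% of the 20404 tested genes on this scale and Hist1h4a above 93.3%. Only 9 of the 20 tested members lay above the median tested gene, which was at 2.12 CPM per kilobase. All classes were represented among the tested genes, with 3 of 6 H1, 6 of 18 H2A, 5 of 18 H2B, 2 of 12 H3 and 4 of 13 H4 members. The replicate ranges of Hist1h3a and Hist2h2be overlapped, and those of Hist1h2ba and Hist1h2aa, which had the same mean of 2.53 CPM per kilobase. Neither pair can be ordered.

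Position along the Hist1 cluster did not group the leading genes into a single block. Hist1h2bp (chromosome 13, 21787461 to 21789213) stood in the proximal stretch, where no neighbour reached the test. Hist1h4i, Hist1h2ag, Hist1h2bj and Hist1h4h followed each other in order. A further run at the distal end held Hist1h2bc, Hist1h1t, Hist1h4c and Hist1h1c, and past 5 untested members Hist1h4a, Hist1h3a, Hist1h1a, Hist1h2ba and Hist1h2aa. Of 13 pairs of members that start head to head within 1000 bases, 3 had both genes tested (Hist1h2ag with Hist1h2bj, Hist1h2ba with Hist1h2aa, Hist2h2ac with Hist2h2be), 2 had 1 gene tested and 8 had neither. Hist1h2bp starts 242 bases from Hist1h2an on the other strand, and that H2A gene was not tested.

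**Figure D2:**
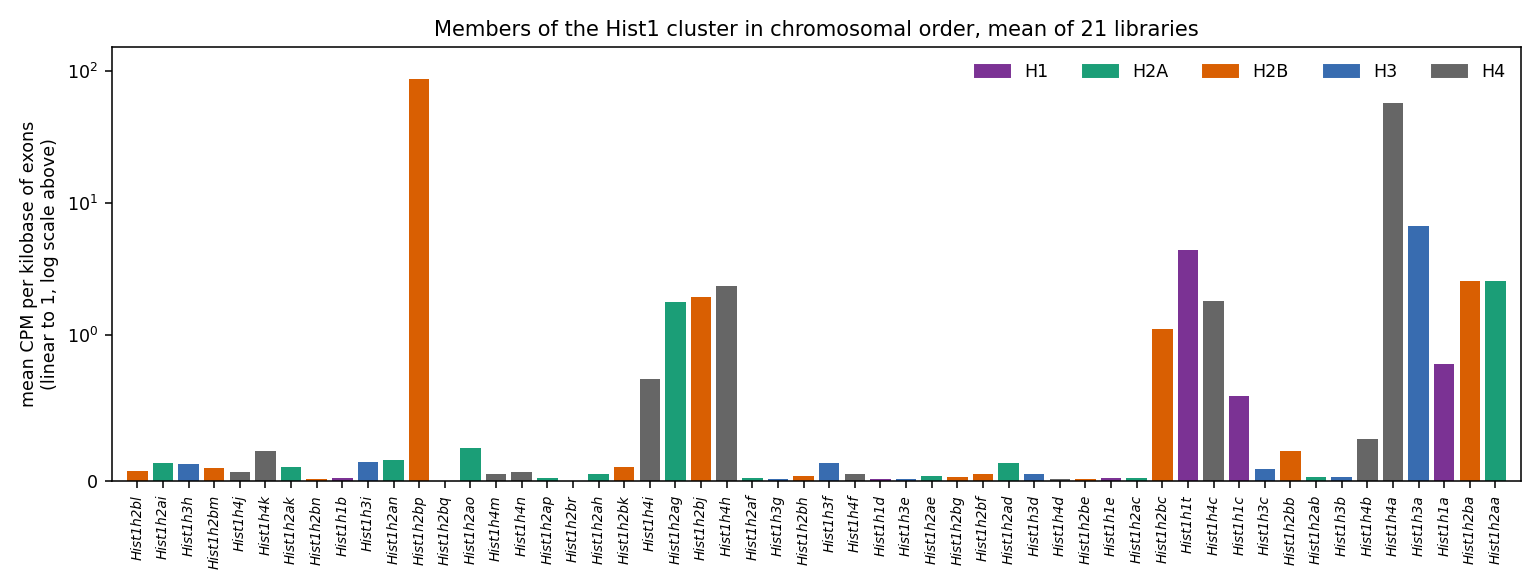
Mean level over 21 libraries (CPM per kilobase of exons; the axis is linear up to 1 and logarithmic above) of the 54 Hist1 members in their order along chromosome 13, coloured by class. Hist1h2bp rises above neighbours that are at or near 0, while Hist1h4a stands next to the detected Hist1h3a in a run of detected members at the right end.

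Features of the 3′ end were compared with detection as a description. Among the 52 members with enough annotated bases after the stop codon to hold a stem-loop, 8 of 17 with a poly(A) signal in their last 50 bases were tested (47.1%), against 9 of 35 without it (25.7%). The median level was 0.131 CPM with the signal and 0.0611 CPM without it. Of the same 52 members, 14 of the 46 with a stem-loop were tested (30.4%) and 3 of the 6 in which none was found. The 15 members with at most 2 annotated bases after the stop codon could not be placed, and 3 of them were tested. All 4 members with the cyclic AMP response element were tested, against 13 of the 58 matched members without it (22.4%). Of these 4, Hist1h2ag and Hist1h2bj share their upstream region. Shares tested with and without the other motifs were 27.5% and 27.3% (CCAAT box), 28.6% and 27.1% (octamer) and 24.1% and 30.3% (TATA box).

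Near-identical copies limit what these counts can show. The authors counted with the gene count mode of STAR, which leaves out reads that align to several places, so members with much repeated sequence can be undercounted. Among the 42 members with less than 50% of their 100-base words in another gene, 17 were tested (40.5%), and among the 25 with more, 3 were (12.0%). Every 31-base word of Hist2h2aa2 also occurs in Hist2h2aa1, its inverted neighbour copy. Reads that lie wholly within it would then be left out. Which reads gave its 10.3 CPM, and from which copy, is uncertain. Hist1h2bp shared 50.6% of its 31-base words with other genes, Hist1h4a 47.9%, Hist1h3a 58.9% and Hist1h2ag 79.8%, while Hist2h2be shared 2.82% and Hist1h1t none. The levels of Hist1h2bq and Hist1h2br, the closest relatives of Hist1h2bp, are likewise uncertain. The strand used for counting is not given in the sources used here. Antisense genes are annotated opposite Hist1h2aa, Hist1h2ag, Hist2h2ab, Hist2h2ac, Hist2h2aa2 and Hist3h2a. If the strand was not used, reads in these overlaps cannot be assigned to either gene, so these members can be undercounted. Hist3h2a overlaps Trim17 on the same strand and shares 32.1% of its words with it.

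Among the testis variants, H1t had the highest level. Hist1h1t was at 2.99, 3.79, 2.91 and 5.08 CPM in the wild-type spermatocyte libraries, 3.76, 3.62 and 5.44 CPM in the heterozygous and 5.12, 3.35 and 3.83 CPM in the null ones. In round spermatids it was at 3.74, 3.94 and 4.27 CPM for wild-type, 3.55, 2.79, 3.33 and 4.94 CPM for heterozygous and 5.55, 5.15, 3.35 and 3.46 CPM for null males. All 6 groups overlapped. The change between fractions in the wild type was small, with a log2 fold change of 0.10, an SE of 0.27 and an adjusted p of 0.815 by edgeR's quasi-likelihood test. Translated from the GENCODE coding sequences, H1t had a median identity of 52.8% to the other 5 H1 proteins, against 74.0% for Hist1h1c.

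TH2A and TH2B, which share a divergent start and whose starts are 305 bases apart, were at 1.79 CPM or less in every library. Hist1h2aa was at 1.74, 0.893, 1.31 and 1.32 CPM in wild-type, 1.08, 0.741 and 0.533 CPM in heterozygous and 0.373, 1.79 and 1.42 CPM in null spermatocytes. Round spermatid libraries held 0.835, 0.957 and 0.896 CPM for wild-type, 0.711, 0.584, 0.966 and 0.543 CPM for heterozygous and 1.13, 0.687, 1.29 and 0.920 CPM for null males. The groups overlapped between genotypes in each fraction, and no test of this gene passed.
Hist1h2ba was at 1.45, 0.744, 1.70 and 0.878 CPM in wild-type, 0.659, 1.74 and 0.427 CPM in heterozygous and 0.745, 1.74 and 1.21 CPM in null spermatocytes. Its round spermatid levels were 1.06, 0.957 and 0.827 CPM for wild-type, 1.18, 1.53, 0.483 and 0.784 CPM for heterozygous and 0.720, 0.491, 0.484 and 0.595 CPM for null males. The 4 null round spermatid libraries lay below the 3 wild-type ones without overlap and below the null spermatocyte libraries, but neither difference passed (adjusted p = 0.290 and 0.0965 by edgeR). With only the 2 groups compared, edgeR called Hist1h2ba lower in null round spermatids than in null spermatocytes (log2 fold change -1.13, adjusted p = 0.0497). TH2B had a median identity of 87.4% to the other 17 H2B proteins and TH2A of 88.5% to the other H2A proteins.

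**Figure D3:**
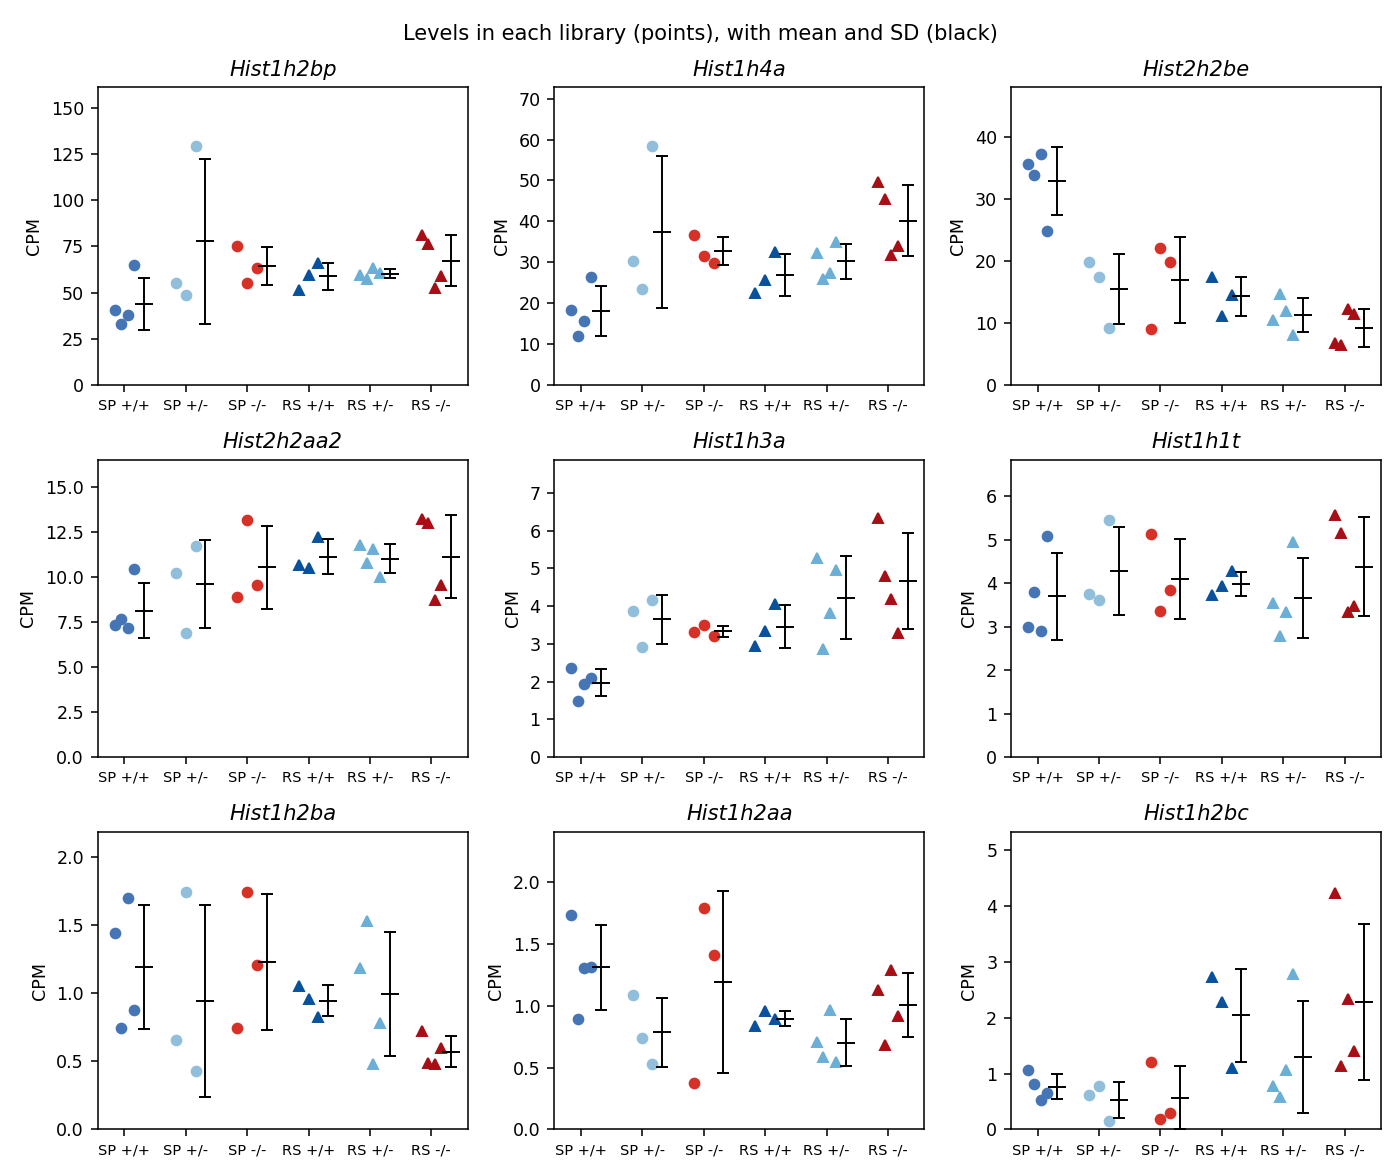
CPM of 9 members in each library (points; SP, spermatocytes; RS, round spermatids; +/+, +/- and -/- are the Ago413 genotypes), with the group mean and SD in black beside them. Hist2h2be is highest in wild-type spermatocytes, where Hist1h2bp, Hist1h4a and Hist1h3a are low in 3 or 4 of the 4 libraries.

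Hist1h2bp, an H2B gene, was the most abundant member in nearly every library. It was at 40.5, 33.1, 37.8 and 64.7 CPM in wild-type, 55.1, 48.8 and 129.5 CPM in heterozygous and 75.4, 55.1 and 63.3 CPM in null spermatocytes. Among round spermatids it was at 51.2, 59.3 and 65.999 CPM for wild-type, 59.4, 57.4, 63.2 and 60.7 CPM for heterozygous and 81.2, 76.4, 52.6 and 59.1 CPM for null males. Round spermatid groups overlapped throughout, and in spermatocytes wild-type replicate 5 reached into the range of the mutants. The highest value of all 21 libraries was that of heterozygous spermatocyte replicate 3.
Hist1h4a, an H4 gene that encodes the same protein as all other H4 members, had the second highest mean CPM. It was at 18.4, 12.0, 15.7 and 26.4 CPM in wild-type, 30.3, 23.3 and 58.3 CPM in heterozygous and 36.6, 31.6 and 29.9 CPM in null spermatocytes. In round spermatids it was at 22.6, 25.6 and 32.4 CPM for wild-type, 32.2, 26.0, 27.4 and 35.0 CPM for heterozygous and 49.7, 45.4, 31.7 and 34.0 CPM for null males. Null and wild-type spermatocytes did not overlap. Heterozygous spermatocyte replicate 3 was again highest, and wild-type replicate 5 was the highest of its group.

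Hist2h2be, an H2B gene whose annotated transcript ends at a poly(A) signal, had its highest levels in wild-type spermatocytes. It was at 35.6, 33.9, 37.2 and 24.9 CPM in wild-type, 19.8, 17.4 and 9.12 CPM in heterozygous and 8.99, 22.1 and 19.7 CPM in null spermatocytes. Round spermatid libraries held 17.4, 11.1 and 14.4 CPM for wild-type, 10.4, 14.7, 11.9 and 8.02 CPM for heterozygous and 6.69, 6.48, 12.2 and 11.5 CPM for null males. Every retained wild-type spermatocyte library exceeded every other retained library, and replicate 5 was the lowest of the 4. Wild-type spermatocyte replicate 3, set aside as an outlier, was at 12.6 CPM. The libraries with the most Hist1h2bp among spermatocytes, heterozygous replicate 3 and null replicate 1, were those with the least Hist2h2be.
Shares of the summed CPM are given as a description, with no test. Hist2h2be was 27.1 ± 7.14% (SD, n = 4) of the summed CPM in wild-type spermatocytes, 10.8 ± 6.01% (n = 3) in heterozygous and 11.5 ± 4.95% (n = 3) in null ones, and 6.39 ± 3.01% (n = 4) in null round spermatids. Wild-type spermatocyte replicate 5, at 16.6%, was near null replicate 2 (15.2%) and heterozygous replicate 1 (14.4%). Hist1h4a was 14.2 ± 2.66% in wild-type and 22.0 ± 1.76% in null spermatocytes and 26.1 ± 1.55% in null round spermatids. The 3 leading genes together kept between 74.5% and 77.6% of the sum in all 6 group means.

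**Figure D4:**
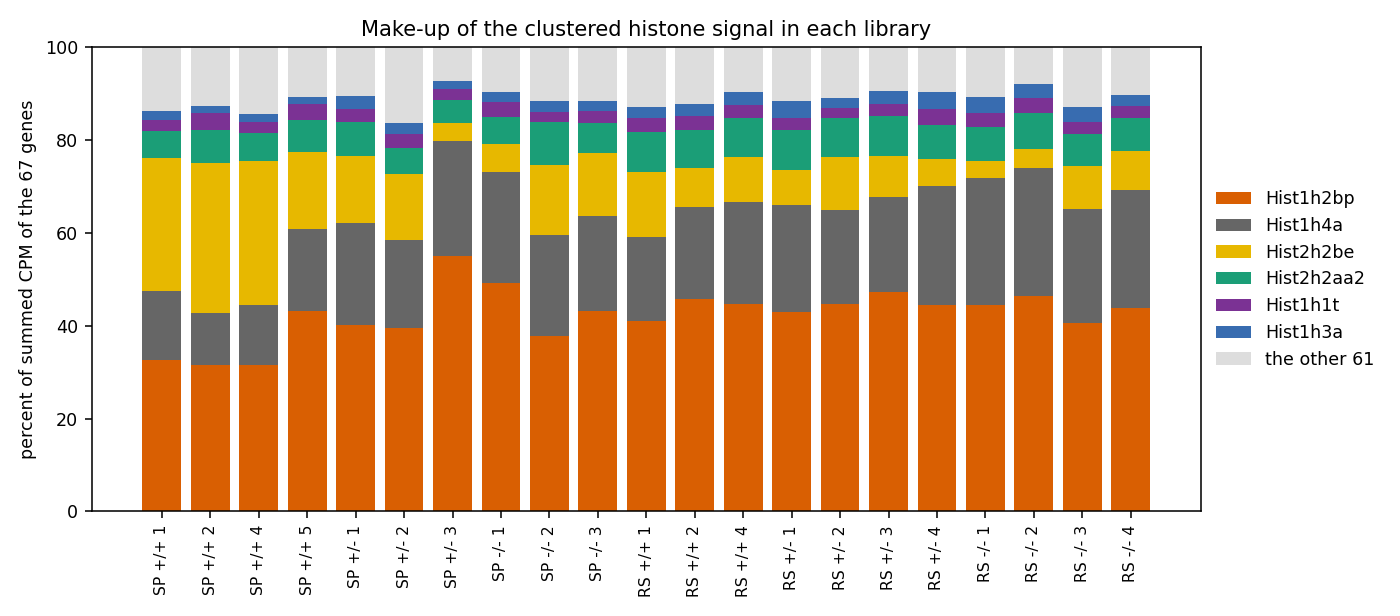
Percent of the summed CPM of the 67 genes in each of 21 libraries (SP, spermatocytes; RS, round spermatids; genotype and replicate number below each bar) that came from the 6 most abundant members and from the other 61. The share of Hist2h2be is widest in wild-type spermatocyte replicates 1, 2 and 4.

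The remaining class leaders were lower. Hist2h2aa2 (H2A) was at 7.33, 7.66, 7.18 and 10.4 CPM in wild-type, 10.2, 6.93 and 11.7 CPM in heterozygous and 8.89, 13.2 and 9.58 CPM in null spermatocytes. Its round spermatid levels were 10.7, 10.5 and 12.3 CPM for wild-type, 11.8, 10.8, 11.6 and 10.0 CPM for heterozygous and 13.2, 13.0, 8.75 and 9.58 CPM for null males. The wild-type fractions just failed to touch, and all genotypes overlapped.
Hist1h3a, the leading H3 gene, was at 2.36, 1.49, 1.94 and 2.10 CPM in wild-type, 3.87, 2.92 and 4.16 CPM in heterozygous and 3.31, 3.49 and 3.21 CPM in null spermatocytes. Among round spermatids it was at 2.95, 3.35 and 4.06 CPM for wild-type, 5.27, 2.88, 3.82 and 4.94 CPM for heterozygous and 6.33, 4.81, 4.19 and 3.30 CPM for null males. All 4 retained wild-type spermatocyte libraries lay below every other retained library. Of the libraries set aside as outliers, wild-type spermatocyte replicate 3 was at 2.77 CPM and wild-type round spermatid replicate 3 at 2.23 CPM.
The second H3 gene, Hist2h3c2, was at 0.675, 0.298, 1.07 and 1.16 CPM in wild-type, 0.465, 0.610 and 1.39 CPM in heterozygous and 0.698, 0.943 and 1.62 CPM in null spermatocytes. In round spermatids it was at 0.791, 0.883 and 0.964 CPM for wild-type, 1.36, 0.494, 0.773 and 1.03 CPM for heterozygous and 1.23, 1.33, 0.887 and 0.812 CPM for null males. All its groups overlapped.
Hist1h1a, a replication-dependent H1 gene with no stem-loop found, was at 0.0482, 0.223, 0.0970 and 0.627 CPM in wild-type, 0.775, 0.828 and 1.23 CPM in heterozygous and 0.698, 0.519 and 0.833 CPM in null spermatocytes. Round spermatid libraries held 0.176, 0.773 and 0.551 CPM for wild-type, 1.07, 0.494, 0.628 and 0.482 CPM for heterozygous and 0.720, 0.933, 0.524 and 0.271 CPM for null males. The 3 heterozygous spermatocyte libraries lay above the 4 wild-type ones, of which all but replicate 5 were at or below the limit that a count of 0 allows.

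Between the fractions, few members differed. In the wild type 3 of 20 members passed the test (adjusted p under 0.05 with a change of more than 0.5 on the log2 scale), against 24.2% of all 20404 tested genes. Hist1h3a rose in round spermatids and Hist2h2be and Hist1h4h fell. The median over the 20 members was 0.19 on the log2 scale, against 0.02 over all tested genes, and 12 of 20 were above 0. In the heterozygotes and the null it had the other sign, at -0.26 (all genes -0.06, 14 of 20 members below 0) and -0.20 (all genes -0.0015, 13 of 20 below 0). Without wild-type spermatocyte replicate 5, 7 of 20 members were called between the wild-type fractions, against 31.6% of all genes. These were Hist1h1a, Hist1h2ag, Hist1h3a, Hist1h4a and Hist2h2aa2 higher and Hist2h2be and Hist3h2a lower. In the heterozygotes no member passed (0 of 20; 0 at an unadjusted p under 0.05, 0 by DESeq2), against 8.89% of all genes. In the null 3 of 20 passed, Hist1h2bc and Hist1h1c higher and Hist2h2be lower, against 17.1% of all genes. Spermatocyte and round spermatid libraries with consecutive library numbers deviated together in 8 of 9 pairs (correlation over 0.1, range -0.15 to 0.42), including every wild-type and null pair. With these pairs as a block, 2 members were called in the wild type (Hist2h2be and Hist1h4h lower), against 24.2% of all genes in that fit, and 1 in the null (Hist1h2bc higher), against 15.1%.

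Hist2h2be had the lowest adjusted p of the members between wild-type fractions, at 32.9 ± 5.51 CPM (SD, n = 4) in spermatocytes and 14.3 ± 3.15 CPM (n = 3) in round spermatids. Its log2 fold change was -1.20 (SE 0.31, adjusted p = 0.00732), and in the null it was -0.88 (SE 0.31, adjusted p = 0.0498). The wild-type groups did not overlap and the null groups did. Leaving out any 1 wild-type library kept the call, with adjusted p from 0.00436 to 0.0497. Adding back the libraries labelled outliers ended it (adjusted p = 0.0660), in a fit that called 0 of 20542 genes between the wild-type fractions. In the null, the call was lost without spermatocyte replicate 2 or 3 or without round spermatid replicate 1 or 2, and with consecutive library numbers as pairs (-0.70, adjusted p = 0.0527), with only the 2 groups compared (adjusted p = 0.0746) and with the outliers added back (adjusted p = 0.119).
Hist1h3a was the only member called higher in wild-type round spermatids, with a log2 fold change of 0.79 (SE 0.26, adjusted p = 0.0274). It was at 1.97 ± 0.367 CPM (n = 4) in spermatocytes and 3.45 ± 0.567 CPM (n = 3) in round spermatids, without overlap. The call was lost without spermatocyte replicate 2 or 4 or round spermatid replicate 2 or 4 (adjusted p up to 0.116), and with consecutive library numbers as pairs (log2 fold change 0.66, adjusted p = 0.117), with no filter on low counts (adjusted p = 0.0643) and with the outliers added back (adjusted p = 0.131). Of the 20 members 12 had values above 0, of which 4 were at an unadjusted p under 0.05. The value of Hist1h2bc was larger (1.43, adjusted p = 0.0759), and that gene was called with no filter on low counts (adjusted p = 0.0161) or with only the 2 groups compared (adjusted p = 0.0165).
Hist1h4h, an H4 gene, was at 1.49, 1.64, 1.79 and 2.32 CPM in wild-type, 0.620, 1.13 and 2.08 CPM in heterozygous and 0.931, 1.27 and 1.46 CPM in null spermatocytes. Its round spermatid levels were 0.571, 0.994 and 0.964 CPM for wild-type, 0.474, 0.629, 1.01 and 0.724 CPM for heterozygous and 1.18, 0.491, 0.726 and 0.703 CPM for null males. The wild-type log2 fold change was -1.11 (SE 0.39, adjusted p = 0.0375), without overlap, and the call was lost without spermatocyte replicate 4 or 5 or without any 1 round spermatid library. It was also lost with no filter on low counts (adjusted p = 0.0833), with the replicate number as a block (adjusted p = 0.0621) and with the outliers added back (adjusted p = 0.0978).

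Both members that rose in null round spermatids have transcripts much longer than their coding sequence. So does Hist2h2be, which was called lower there. Hist1h2bc (H2B) was at 1.06, 0.818, 0.533 and 0.659 CPM in wild-type, 0.620, 0.784 and 0.160 CPM in heterozygous and 1.21, 0.189 and 0.291 CPM in null spermatocytes. Among round spermatids it was at 2.73, 2.28 and 1.10 CPM for wild-type, 0.770, 0.584, 1.06 and 2.77 CPM for heterozygous and 4.22, 1.13, 2.34 and 1.41 CPM for null males. Its log2 fold change between fractions was 2.01 in the null (SE 0.63, adjusted p = 0.0302) and 1.43 in the wild type (adjusted p = 0.0759). Null libraries of the fractions overlapped at 1.13 to 1.21 CPM. Without null spermatocyte replicate 1, the highest of its group, the null value was 3.20 (adjusted p = 0.00572), and with consecutive library numbers as pairs it was 2.37 (adjusted p = 0.00647). The difference between these changes was 0.58 (SE 0.86, adjusted p = 0.902), so the null was not shown to differ from the wild type.
Hist1h1c (H1.2) was at 0.771, 0.744, 0.970 and 0.439 CPM in wild-type, 0.659, 1.92 and 0.373 CPM in heterozygous and 0.605, 0.566 and 0.167 CPM in null spermatocytes. In round spermatids it was at 1.36, 0.994 and 0.689 CPM for wild-type, 0.178, 0.899, 0.918 and 0.904 CPM for heterozygous and 2.06, 0.982, 1.90 and 0.866 CPM for null males. The null change was 1.71 (SE 0.57, adjusted p = 0.0398), without overlap. Both null calls were lost without spermatocyte replicate 2 or 3 or round spermatid replicate 1, and that of Hist1h1c also without round spermatid replicate 3 and with consecutive library numbers as pairs (1.87, adjusted p = 0.0565) and with the outliers added back (adjusted p = 0.0971).
Markers of other cells moved with the fractions. Of 8 macrophage markers, 4 were higher in round spermatids in each genotype (C1qa by 5.25 on the log2 scale in the wild type), and 3 of 8 Sertoli cell markers were higher in null round spermatids, where their summed level was 225.8 to 414.3 CPM against 88.6 to 160.7 CPM in null spermatocytes. The summed macrophage level was 14.3 to 28.3 CPM in round spermatid libraries and 7.95 to 22.0 CPM in spermatocyte libraries, where C1qc had 0 counts in the wild type. Of 13 tested spermatogonia markers, 5 were called higher in wild-type round spermatids (median log2 fold change 0.66), 0 in heterozygous and 2 in null ones, while their summed level was 937.0 to 1053 CPM in wild-type spermatocytes and 835.8 to 973.8 CPM in wild-type round spermatids. Of 3 tested erythrocyte markers, 1, 2 and 3 were called higher in wild-type, heterozygous and null round spermatids (medians 3.18, 3.63 and 3.50), with summed levels of 4.08 to 8.75 CPM in wild-type and 5.25 to 10.5 CPM in null round spermatids. The part of these cells in the rise of Hist1h2bc and Hist1h1c was not tested. In bulk fractions, fewer cells of a type and less RNA per cell cannot be told apart.
Non-overlap of the libraries was also no more frequent than over all genes. In the wild type 6 of 20 members did not overlap between fractions, against 33.7% of all tested genes. In the heterozygotes 0 of 20 did not overlap, against 18%, and in the null 4 of 20, against 29.7%.

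**Figure D5:**
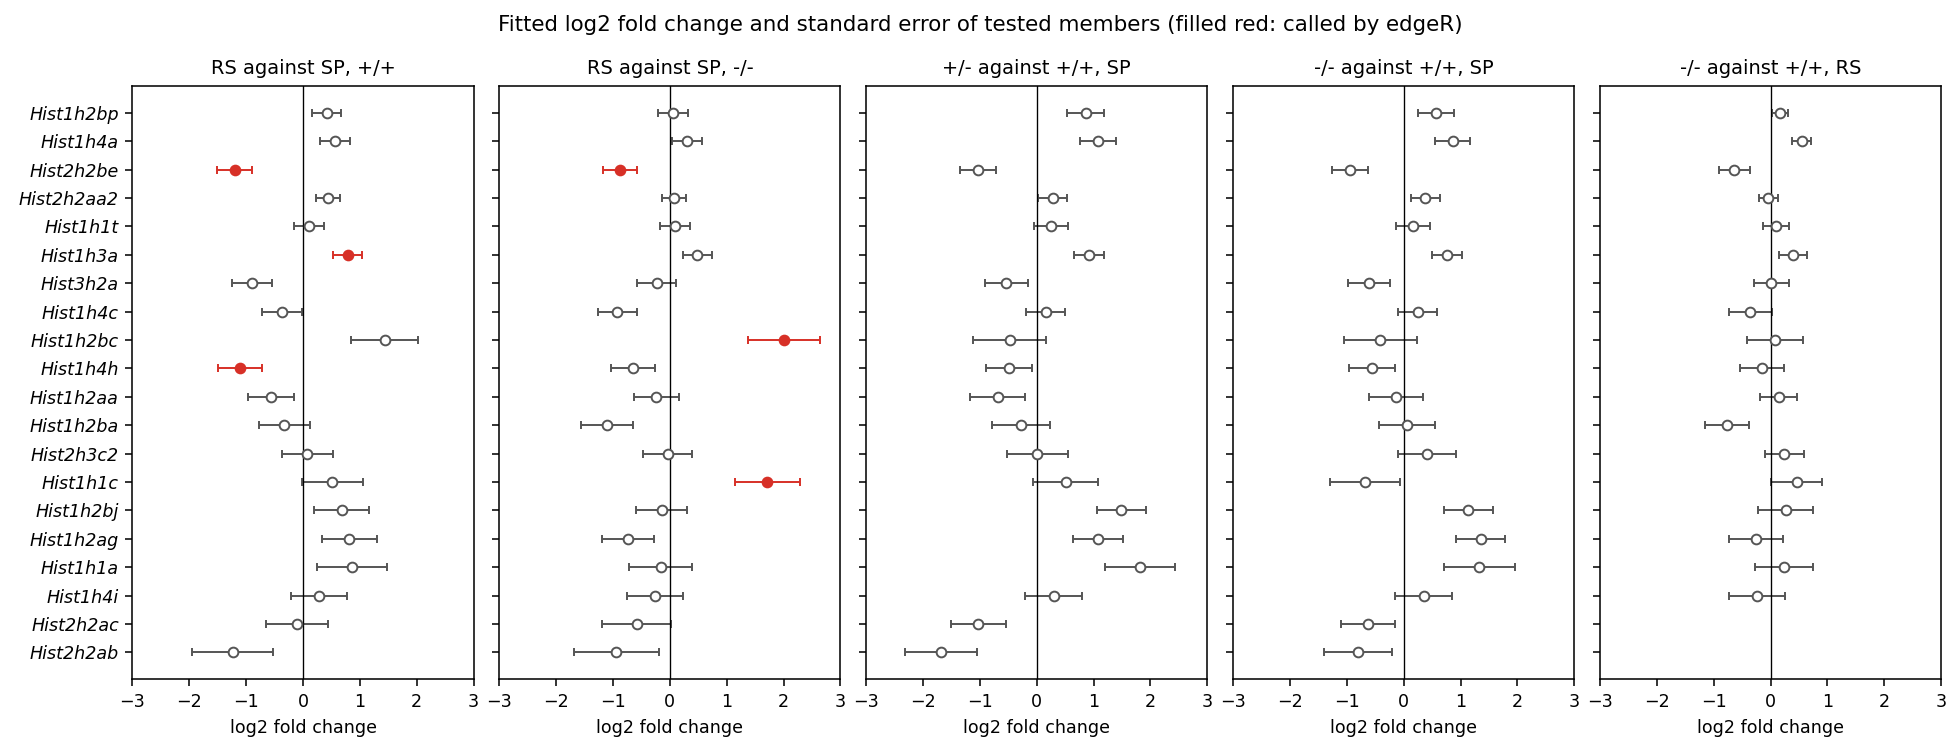
Fitted log2 fold change (points) with its standard error (bars) of the tested members in 5 comparisons (RS, round spermatids; SP, spermatocytes; +/+, +/- and -/- are the Ago413 genotypes), ordered by mean CPM. Filled red points are members called by edgeR. Hist1h4a and Hist2h2be lie on opposite sides of 0 in all 5 panels. Hist2h2ab and Hist2h2ac were not tested in round spermatids alone.

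Between genotypes, no member passed edgeR's test in either fraction. In spermatocytes 0 of 20 passed for null against wild-type, where 0.0411% of 19450 tested genes did. For heterozygous against wild-type 0 of 20 passed, against 0.0257%, and for null against heterozygous 0 of 20, against 0.00514%. In round spermatids 0 of 18 tested members passed for null against wild-type (0.0518% of 19310 genes), 0 of 18 for heterozygous against wild-type (0.0207%) and 0 of 18 for null against heterozygous (0.00518%). At an unadjusted p under 0.05 there were 5 members for null against wild-type spermatocytes, 8 for heterozygous against wild-type spermatocytes, 2 for null against wild-type round spermatids and 3 for null against heterozygous round spermatids. There were 0 for null against heterozygous spermatocytes and 0 for heterozygous against wild-type round spermatids. Over all genes tested, 30.4% were at an unadjusted p under 0.05 for null against wild-type spermatocytes and 24.6% for heterozygous against wild-type. The share was 3.74% for null against heterozygous spermatocytes. In round spermatids it was 19.3% for null against wild-type, 8.88% for heterozygous against wild-type and 7.67% for null against heterozygous.

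DESeq2, run on the same genes, called some. For null against wild-type spermatocytes it called 3 of 20 members (Hist1h2ag and Hist1h3a higher, Hist2h2be lower), against 15.2% of all genes. For heterozygous against wild-type spermatocytes it called 4 of 20 (Hist1h2bj, Hist1h3a and Hist1h4a higher, Hist2h2be lower), against 6.16%. For null against wild-type round spermatids it called 1 of 18, Hist1h4a, against 3.62%, and it called 0 in the other 3 genotype comparisons. The wild-type spermatocyte libraries are shared by both spermatocyte comparisons, so the second does not repeat the first independently. The members' share with libraries that did not overlap was 6 of 20 for null against wild-type spermatocytes (28.0% of all genes), 5 of 20 for heterozygous against wild-type (17.6%), 1 of 18 for null against wild-type round spermatids (19.4%) and 0 of 18 for heterozygous against wild-type (9.81%).

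The values that edgeR did not call are given for the members with the lowest p. In spermatocytes, Hist1h4a had a fitted log2 fold change of 0.86 in the null (SE 0.31, adjusted p = 0.0941) and 1.08 in the heterozygotes (SE 0.31, adjusted p = 0.124). Hist1h3a had 0.76 in the null (SE 0.27, adjusted p = 0.0901) and 0.92 in the heterozygotes (adjusted p = 0.124). Hist2h2be had -0.94 in the null (SE 0.32, adjusted p = 0.0830) and -1.04 in the heterozygotes (adjusted p = 0.125). Both comparisons use the same 4 wild-type libraries and the genes were chosen for their low p, so a like direction in both mutants is no result. With no filter on low counts edgeR called Hist1h4a (0.88, adjusted p = 0.00861) and Hist2h2be (-0.90, adjusted p = 0.0118) in the null, against 7.61% of all genes in that fit. In the heterozygotes it then called 5 members, against 4.30%: Hist1h4a (adjusted p = 0.00303), Hist1h2bp, Hist1h1a and the otherwise untested Hist1h2bb higher and Hist2h2be (adjusted p = 0.00395) lower. With only the 2 groups compared it called Hist1h4a in the null (0.90, adjusted p = 0.0491), against 6.93%.
The divergent pair Hist1h2ag and Hist1h2bj, an H2A and an H2B gene that share an upstream region, had log2 fold changes of 1.35 and 1.13 in null spermatocytes (adjusted p = 0.0749 and 0.106). The null and wild-type libraries did not overlap for either gene. In round spermatids Hist1h4a was at 26.8 ± 5.03 CPM (n = 3) in the wild type and 40.2 ± 8.73 CPM (n = 4) in the null, which differ by 0.55 on the log2 scale (SE 0.17, adjusted p = 0.112). Of 8 macrophage markers 7 were higher in null than in wild-type round spermatids (5 at an unadjusted p under 0.05, none called, median log2 fold change 1.02), with summed levels of 20.8 to 28.3 CPM in the null and from 14.3 CPM to just under the lowest null library in the wild type. Of 12 round spermatid markers 11 were higher (3 at an unadjusted p under 0.05, none called), with summed levels of 22449 to 44069 CPM against 21494 to 29183 CPM. Of 12 spermatocyte markers 8 had values below 0 (4 at an unadjusted p under 0.05, none called), and their sums did not overlap, at 911.6 to 1036 CPM in the null and 1163 to 1304 CPM in the wild type. The part of these markers in the Hist1h4a value was not tested.
The H1t, TH2A and TH2B genes had log2 fold changes of 0.16, -0.14 and 0.06 in null against wild-type spermatocytes, each smaller than its SE.

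The number of genotype calls also changed with wild-type spermatocyte replicate 5, whose Hist1h2bp, Hist1h4a and Hist2h2be were the nearest of its group to the mutant means. Without it edgeR called 4 members for null against wild-type spermatocytes (Hist1h1a, Hist1h2ag and Hist1h4a higher, Hist2h2be lower), against 23.6% of all genes in that fit. It called 8 for heterozygous against wild-type, against 15.5% (Hist1h1a, Hist1h2ag, Hist1h2bj, Hist1h2bp, Hist1h3a and Hist1h4a higher, Hist2h2ab and Hist2h2be lower). Without it the log2 fold change of Hist2h2be was -1.05 in the null and -1.14 in the heterozygotes (adjusted p = 0.0401 and 0.0399). That of Hist1h4a was 1.12 and 1.33 (adjusted p = 0.0237 and 0.0229), and that of Hist1h3a in the heterozygotes 0.96 (adjusted p = 0.0424). Hist1h1a moved most among the called members, from 1.33 to 2.57 in the null and from 1.81 to 3.05 in the heterozygotes. Hist1h2ag went from 1.35 to 1.95 and from 1.07 to 1.67. Among the retained libraries, replicate 5 is the only wild-type spermatocyte library whose library number is above 60, while all 3 heterozygous ones are numbered up to 60 and 2 of the 3 null ones above. Among retained libraries numbered up to 60, Hist1h4a was at 12.0 to 18.4 CPM in 3 wild-type, 23.3 to 58.3 CPM in 3 heterozygous and 36.6 CPM in 1 null spermatocyte library. Among those above 60 it was at 26.4 CPM in the 1 wild-type and 29.9 and 31.6 CPM in 2 null libraries. Hist2h2be was at 33.9 to 37.2 CPM in the wild type, 9.12 to 19.8 CPM in the heterozygotes and 8.99 CPM in the null up to 60, and above 60 at 24.9 CPM in 1 wild-type and 19.7 and 22.1 CPM in 2 null libraries. Among retained libraries the null lay on the same side of the wild type in both sets of numbers for these 2 genes. Hist1h2bp did not: up to 60 the null library (75.4 CPM) lay above the 3 wild-type ones (33.1 to 40.5 CPM), and above 60 both null libraries (55.1 and 63.3 CPM) lay below the wild-type one (64.7 CPM). With the libraries labelled outliers, the order of Hist2h2be above 60 did not hold either: wild-type spermatocyte replicate 3, numbered 72, was at 12.6 CPM, below both null libraries above 60. Its Hist1h4a was at 25.0 CPM, below both. Heterozygous spermatocyte replicate 4, numbered 66, was at 7.26 CPM of Hist2h2be and 40.3 CPM of Hist1h4a. With the set of numbers as a term in the fit, edgeR called 0 members in each genotype comparison (0.0206% of all genes for null and 0.0257% for heterozygous against wild-type spermatocytes).
Without heterozygous spermatocyte replicate 3, 0 members were called for heterozygous against wild-type, and the log2 fold change went from 0.86 to 0.28 for Hist1h2bp and from 1.08 to 0.60 for Hist1h4a.

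Stage and cell markers were also compared between genotypes in spermatocytes, where Stra8 alone was called. Summed spermatocyte markers (12 genes) were 1518 to 2341 CPM in wild-type, 1211 to 1486 CPM in heterozygous and 1096 to 1519 CPM in null libraries, and 9 of the 12 were lower in the null, with none called. Of 12 round spermatid markers 11 were higher in null spermatocytes, also with none called, and their summed level was 3891 to 8461 CPM in wild-type and 4588 to 12533 CPM in null libraries. In heterozygous spermatocytes 10 of the 12 were higher, with none called and sums of 7863 to 8808 CPM. At an unadjusted p under 0.05 there were 7 higher in the heterozygotes and 5 in the null. The lowest wild-type spermatocyte marker sum was that of replicate 5 (1518 CPM) and the lowest of all spermatocyte libraries that of null replicate 1 (1096 CPM), which had the least Hist2h2be. Of the 13 tested spermatogonia markers 9 were higher in null and 11 in heterozygous spermatocytes, where Stra8, a gene of meiotic entry, was called (log2 fold change 2.08, adjusted p = 0.0107). Sertoli cell markers had values below 0 for 8 of 8 genes in null against wild-type spermatocytes (median log2 fold change -0.74, none at an unadjusted p under 0.05), with summed levels of 88.6 to 160.7 CPM against 149.2 to 408.6 CPM. Leydig cell markers were at 3.25 to 10.3 CPM in wild-type and 6.13 to 23.2 CPM in heterozygous spermatocytes, and erythrocyte markers at 1.04 to 6.47 CPM in all spermatocyte libraries, with 4 of 6 genes at 0 in the wild type. Of 24 S-phase markers 8 were higher and 6 lower in heterozygous and 3 higher and 4 lower in null than in wild-type spermatocytes at an unadjusted p under 0.05, with none called. Their summed level was 918.3 to 1194 CPM in wild-type, 781.0 to 949.9 CPM in heterozygous and 811.4 to 942.0 CPM in null libraries. Of 5 tested macrophage markers 3 were higher and 1 lower in the null at an unadjusted p under 0.05 (none called, median log2 fold change 1.13), with sums of 8.09 to 13.8 CPM in wild-type and 8.20 to 13.9 CPM in null libraries. The part of these markers in the histone values was not tested.

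The difference between null and wild-type in the change from spermatocytes to round spermatids was also fitted. No member passed (0 of 20; 1 at an unadjusted p under 0.05, 0 by DESeq2), where 0.0% of 20404 genes did. The member with the lowest p was Hist1h2ag, at -1.55 (SE 0.66, adjusted p = 0.807). For Hist1h4a the difference was -0.26 (SE 0.38) and for Hist2h2be 0.33 (SE 0.43).

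Genes that make, trim and destroy histone mRNA were also compared between fractions. In this and the next lists, called genes are to be read against 24.2% of all genes called between wild-type fractions in either direction, 8.89% between heterozygous and 17.1% between null ones, and medians against 0.02 on the log2 scale over all genes in the wild type. Of 20 genes for the cleavage and transcription of histone mRNAs, 2 were higher and 8 lower in wild-type round spermatids (median log2 fold change -0.41). Slbp, the stem-loop binding protein, fell by 0.59 on the log2 scale (SE 0.14, adjusted p = 0.00376), from 123.3 ± 15.3 CPM (SD, n = 4) to 81.9 ± 1.28 CPM (n = 3). Npat, a coactivator of histone gene transcription, fell by 0.84, and Ccne2, a cyclin that acts on it, by 1.83, while Sympk and Cstf2, parts of the cleavage complex, rose by 0.66 and 0.75. In the heterozygotes 1 gene of this list was higher and 0 were lower, and in the null 1 was higher (Sympk) and 1 lower (Npat).
Of 10 genes for histone mRNA decay, 4 fell in wild-type round spermatids (median -0.59), among them the uridylating enzyme Tut4 (by 1.10) and the helicase Upf1 (by 0.93), with 0 called in the heterozygotes or the null. Of 14 genes for poly(A) tail synthesis 2 rose and 3 fell in the wild type (median -0.08). Pabpn1, the nuclear poly(A)-binding protein, rose by 0.65 and Tent4b, a noncanonical poly(A) polymerase, by 0.76, and both also rose in the heterozygotes and the null. None of these lists had a called gene in a genotype comparison.

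Histone variants encoded outside the clusters mostly have polyadenylated mRNAs. Of 19 tested, 4 rose and 3 fell in wild-type round spermatids (median 0.02). The spermatid linker variants H1fnt and Hils1 rose by 1.86 and 1.19, and the H2A variants H2al2a and H2al1m by 1.87 and 1.60, each with an SE under 0.4. All 4 also rose in the null, and 3 of them in the heterozygotes. H2afz, H2afy and H2afy3 fell by 0.55, 0.62 and 0.93 in the wild type. The 21 listed variants summed to between 1783 and 4421 CPM in null libraries, against 129.5 to 182.3 CPM for all 67 clustered genes there.
Of 22 histone chaperones, 5 fell in wild-type round spermatids (median -0.27), a share near that of all genes. Nasp, which binds H1 and H3 with H4, fell by 0.84, and Nap1l1 and Supt16 by 1.27 and 1.26. In the heterozygotes Hira alone was called, and it fell. In the null Nasp fell and Anp32e and Rbbp7 rose. Of 24 genes of S phase, 2 rose (Fen1 and E2f1) and 4 fell (Top2a, Gins1, Gins2 and Mki67) in wild-type round spermatids (median 0.11), also a share near that of all genes. Their summed level was 918.3 to 1194 CPM in wild-type spermatocytes and 924.1 to 955.4 CPM in wild-type round spermatids.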

How the data were processed

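Poly(A)-selected directional RNA-seq was used from 21 libraries of 2 fractions and 3 genotypes. Per the submitters' processing notes and the study's methods, the authors trimmed reads with Trim Galore, mapped them to mm10 with STAR and deposited raw counts per gene; tool versions, the annotation release and the strand column counted are not given in the sources used here. Counts were used as deposited, with 12825105 to 29749058 per library, and intervals and floors cover counting error only. The members and gene lists were chosen with earlier results of these data known.

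Genes with 10 or more counts in 3 or more libraries were tested with edgeR 4.0.16 in R 4.3.3 (TMM scaling, quasi-likelihood test, 1 fit of all libraries for the fractions and 1 per fraction for the genotypes). A call needs a Benjamini-Hochberg adjusted p under 0.05 over all genes together with a log2 fold change beyond 0.5 in size. Values in every library are given for 3 testis variants and the 2 members of each class with the highest mean CPM per kilobase. Members called between fractions are named (up to 4 in each direction), and of the other lists up to 4 called genes in each direction, by p. DESeq2 1.42.0, other scalings and filters, left-out libraries and blocks were alternatives. Scripts were tested on simulated data. Within a fraction, replicate numbers paired no libraries: 6 of 17 same-numbered pairs had deviations correlated above 0.1. Consecutive library numbers across the fractions, which the labels do not call pairs, did so in 8 of 9.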

Additional observations from a re-analysis of the deposited data

Results flagged for a closer look

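Among 39 sets of 4 libraries (named members in the groups of that size), 2 held a value that stood apart by Dixon's criterion, which chance alone meets in about 1 of 20 groups. Hist2h2aa2 was at 10.4 CPM in wild-type spermatocyte replicate 5, against 7.18 to 7.66 CPM in the other 3 libraries. Hist1h1c was at 0.178 CPM in heterozygous round spermatid replicate 1, against 0.899 to 0.918 CPM in the other 3.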

How the results depend on the processing

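No alternative reversed a result. For wild-type round spermatids against spermatocytes, 3 members were called, against 0 with the libraries labelled outliers added back (0 of all genes) and 1 to 7 (16.7% to 31.6% of all genes) when 1 library was left out (7 without spermatocyte replicate 5, and 1 without spermatocyte replicate 4 or round spermatid replicate 2 or 4). In the null, 3 were called, against 1 with the outliers added back (11.1% of all genes), 1 with consecutive library numbers as pairs (15.1%) and 0 to 4 (6.15% to 20.3% of all genes) with 1 library left out (0 without spermatocyte replicate 2 or 3 or round spermatid replicate 1). For null against wild-type spermatocytes 0 were called, against 2 of 64 with no filter on low counts (7.61% of all genes), 3 by DESeq2 (15.2%), 1 with only the 2 groups compared (6.93%) and 0 to 4 with 1 library left out. For heterozygous against wild-type spermatocytes 0 were called, against 5 of 64 with no filter (4.30% of all genes), 4 by DESeq2 (6.16%) and 0 to 8 with 1 library left out. In both, the highest count was without wild-type replicate 5 (23.6% and 15.5% of all genes). For null against wild-type round spermatids 0 were called, against 1 by DESeq2 (3.62%). With no filter 3 members were called between wild-type fractions (12.6% of all genes), but these were Hist1h2bb, Hist1h2bc and Hist2h2be. With only the 2 groups compared 3 were called in the null (19.7%), namely Hist1h1c, Hist1h2ba and Hist1h2bc. The cause of these differences was not tested.

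The replicate number as a block gave 8 calls of 19 members for the wild-type fractions (34.8% of all genes) and 4 of 19 for the null fractions (24.9%). It gave 0 for the heterozygous fractions and in each genotype comparison within a fraction. The block was not fitted for the difference of the fraction change. Within a fraction, same-numbered libraries had deviations correlated from -0.32 to 0.24. Across the fractions the block also joined some libraries with consecutive numbers. Their correlations were 0.42 (wild-type replicate 1), 0.30 (null replicate 1) and 0.13 (heterozygous replicate 3). Of the 67 members, 65 were tested between fractions with no filter on low counts, but those added held at most 12 counts in any library.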
